A study of Mus musculus with 28 samples.

Results

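The genes described here are 10 genes that mark lipid-associated macrophages: Spp1, Gpnmb, Trem2, Cd9, Cd63, Fabp5, Lgals3, Mmp12, Itgax and Lpl. They are a marker set known from other work, and were chosen with earlier results of these data known. Their rows were looked up by gene symbol in the liver table and by Ensembl identifier in both macrophage culture tables. All 10 were found in each of the 3 tables, among 17752 features in the livers, 56748 in the NFATc3-MKI cultures with their controls and 21959 in the ASK1-MKI cultures with theirs. After the filter on low counts, 10, 9 and 10 of them were tested; Mmp12 fell below the filter in the NFATc3-MKI set.

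Lipid-associated macrophages are macrophages that take up lipid and cell debris in obese fat, fatty liver and atherosclerotic plaque, where they gather around dying lipid-laden cells. The surface receptor TREM2 binds lipids and lipoproteins and signals through the adaptor TYROBP, and it is needed for much of the state. In steatohepatitis such cells mostly arise from recruited monocytes as resident Kupffer cells are lost, and they lie near fibrotic scars and bile ducts. Several of the 10 genes are not private to them: bile duct cells make osteopontin and CD9, and Cd63 and Lpl are expressed in other liver cells.

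The study sequenced polyadenylated RNA of 16 livers and 12 macrophage cultures and compared genotypes. The livers came from male mice that were 8 weeks old when they were put on a diet without methionine and choline, which was given for 4 weeks and brings on steatohepatitis; no other diet was analysed here. The 4 groups of 4 livers were Lyz2-Cre, the control; NFATc3-MKO, a macrophage knockout of NFATc3; ASK1-MKO, a macrophage knockout of ASK1; and MDKO, a knockout of both. Lyz2-Cre carries the Cre recombinase under the promoter of lysozyme 2, which is active in macrophages, monocytes and neutrophils, and whole liver also contains cells in which it is not active. NFATc3 is a transcription factor that calcineurin activates, and ASK1 is a stress-activated kinase encoded by Map3k5. The cultures were macrophages derived from bone marrow (BMDMs), grown for 7 days in medium with 30% L929 supernatant, which supplies the growth factor CSF1. They carried a macrophage knock-in, labelled NFATc3-MKI or ASK1-MKI, with 3 cultures a group, and each knock-in had 3 Lyz2-Cre control cultures of its own. The labels do not say how the alleles were built, nor whether the cultures of a group came from separate mice, so p-values over cultures measure only the spread between these samples, which may be technical.

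Total counts ran from 20601168 to 30834547 in 15 livers, with 8912117 in MDKO replicate 3. Cultures of the NFATc3-MKI set held 7693464 to 9398163, and those of the ASK1-MKI set 16051951 to 18728508. Levels below are in CPM, a gene's counts relative to its scaled library size, and a gene is called changed at a Benjamini-Hochberg adjusted p under 0.05 in edgeR's quasi-likelihood test over all genes. The targeted genes did not clearly bear out the labels. Their level is a limited check, since whole liver holds cells without active Cre and the build of the alleles is not given. Nfatc3 was lower in livers labelled NFATc3-MKO, at 28.3 ± 5.78 CPM (SD, n = 4) against 36.3 ± 3.94 in Lyz2-Cre livers. That difference did not pass (edgeR adjusted p = 0.12). Map3k5 was higher in livers labelled ASK1-MKO, 46.3 ± 6.12 against 30.9 ± 2.21 CPM (edgeR adjusted p = 0.0262). In the livers labelled MDKO the log2 changes were 0.01 for Nfatc3 and -0.01 for Map3k5. Nfatc3 was 0.832 times its control in cultures labelled NFATc3-MKI, and Map3k5 0.893 times its control in those labelled ASK1-MKI (edgeR adjusted p = 0.0371 and 0.0266), so both knock-in labels also stand beside a lower level of the targeted gene. Group names below are the labels.

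The cultures also differed in how far they bore out their cell type. In the ASK1-MKI set Lyz2 stood at 26581 to 29899 CPM, Adgre1 (F4/80) at 2674 to 3330 and Apoe at 7443 to 9045. In the NFATc3-MKI set Lyz2 stood at 363 to 503 CPM, Adgre1 at 30.0 to 36.3 and Apoe at 5.06 to 16.0. Marco and Tfec were at 0 in all 6 of those cultures, Mertk reached at most 0.133 CPM and Ms4a7 at most 0.231, whereas Csf1r stood at 274 to 407 and Cd68 at 706 to 1033. Results from the NFATc3-MKI set therefore come from cells in which Marco, Tfec, Mertk and Ms4a7 were at or near 0. The genes of this check were picked after their values were seen. The sum of 8 pan-macrophage markers, at most 1 of them at 0, was 1706 to 2620 CPM there and 33842 to 37854 in the ASK1-MKI set. Hepatocyte and cholangiocyte markers summed to at most 0.126 and 0.462 CPM over the 12 cultures.

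The upstream sequences of 5 of the genes are shown for these reasons. Of the 10, Gpnmb and Mmp12 had the largest fitted log2 differences between NFATc3-MKO and ASK1-MKO livers (3.82 and 2.64), Spp1 the largest rise in NFATc3-MKI cultures (2.17) and Itgax that in ASK1-MKI cultures (2.39). Trem2 is shown as the receptor of the state. Each is the 250 bases before a RefSeq start, read 5′ to 3′ on the gene's plus strand in build GRCm38.p6. Capitals mark matches on either strand to TGANTCA (the AP-1 site), GAGGAAGT (a PU.1 site), TATAAA and the E-boxes CACGTG and CATGTG.
Spp1, chr5:104434861-104435110: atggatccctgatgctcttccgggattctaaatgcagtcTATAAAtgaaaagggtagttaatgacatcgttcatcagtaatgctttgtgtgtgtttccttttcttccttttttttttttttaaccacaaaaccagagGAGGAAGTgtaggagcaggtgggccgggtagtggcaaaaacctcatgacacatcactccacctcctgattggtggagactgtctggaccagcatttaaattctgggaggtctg
Gpnmb, chr6:49036268-49036517: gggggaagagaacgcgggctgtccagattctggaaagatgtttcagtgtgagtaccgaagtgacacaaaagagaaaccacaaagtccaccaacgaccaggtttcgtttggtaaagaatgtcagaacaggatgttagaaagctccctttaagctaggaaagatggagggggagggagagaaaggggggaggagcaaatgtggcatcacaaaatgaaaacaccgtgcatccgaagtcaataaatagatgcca
Itgax, chr7:128129300-128129549: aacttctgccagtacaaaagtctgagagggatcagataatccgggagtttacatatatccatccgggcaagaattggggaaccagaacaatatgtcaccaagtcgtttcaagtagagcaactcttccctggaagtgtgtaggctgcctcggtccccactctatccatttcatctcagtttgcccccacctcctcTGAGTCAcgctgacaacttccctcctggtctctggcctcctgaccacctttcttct
Mmp12, chr9:7344147-7344396: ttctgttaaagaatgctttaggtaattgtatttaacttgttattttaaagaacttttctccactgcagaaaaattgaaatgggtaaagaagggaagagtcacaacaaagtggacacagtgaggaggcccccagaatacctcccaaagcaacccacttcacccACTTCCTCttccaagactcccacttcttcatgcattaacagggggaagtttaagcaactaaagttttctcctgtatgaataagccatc
Trem2, chr17:48346151-48346400: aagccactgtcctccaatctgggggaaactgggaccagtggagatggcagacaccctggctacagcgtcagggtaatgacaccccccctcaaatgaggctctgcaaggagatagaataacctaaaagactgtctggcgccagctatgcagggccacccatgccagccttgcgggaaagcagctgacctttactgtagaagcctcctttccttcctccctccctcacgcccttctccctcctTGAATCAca

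The AP-1 letters lie 56 bases before the start of Itgax and 9 before that of Trem2, and 6.75% of 32851 RefSeq mouse promoter windows of this length hold them. The PU.1 letters lie 113 bases before Spp1 and, on the minus strand, 88 before Mmp12, and 2.44% of windows hold them. TATAAA, found in 12.4% of windows, lies 211 bases before Spp1. The short NFAT core GGAAA, searched on both strands and not capitalised, occurs 3 times in the Trem2 window, 2 times in that of Gpnmb and once in that of Spp1, and is held by 55.6% of windows. No match overlapped another among the 10 windows found for 8 of the 10 genes; Fabp5 and Lpl had none. Each match is a description of letters, not a shown binding site.

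In the livers, levels of the 10 genes ran highest in the group labelled NFATc3-MKO and lowest, for 8 of them, in that labelled ASK1-MKO. Between these groups 9 of the 10 were called, all higher in NFATc3-MKO, where 12.8% of all genes tested were called and 7.15% were called higher; without NFATc3-MKO replicate 2 the count was 1. Against Lyz2-Cre livers, Spp1 was the 1 called in NFATc3-MKO, where 8.45% of all genes were called, and none was called in ASK1-MKO, where 8.46% were. None was called in MDKO against Lyz2-Cre, where 0% of all genes were, and Gpnmb and Spp1 were called lower in MDKO than in NFATc3-MKO, where 7.35% were. In whole liver, fewer cells of a type and less of an RNA in each cell cannot be told apart, so each level describes the tissue.

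**Figure D1:**
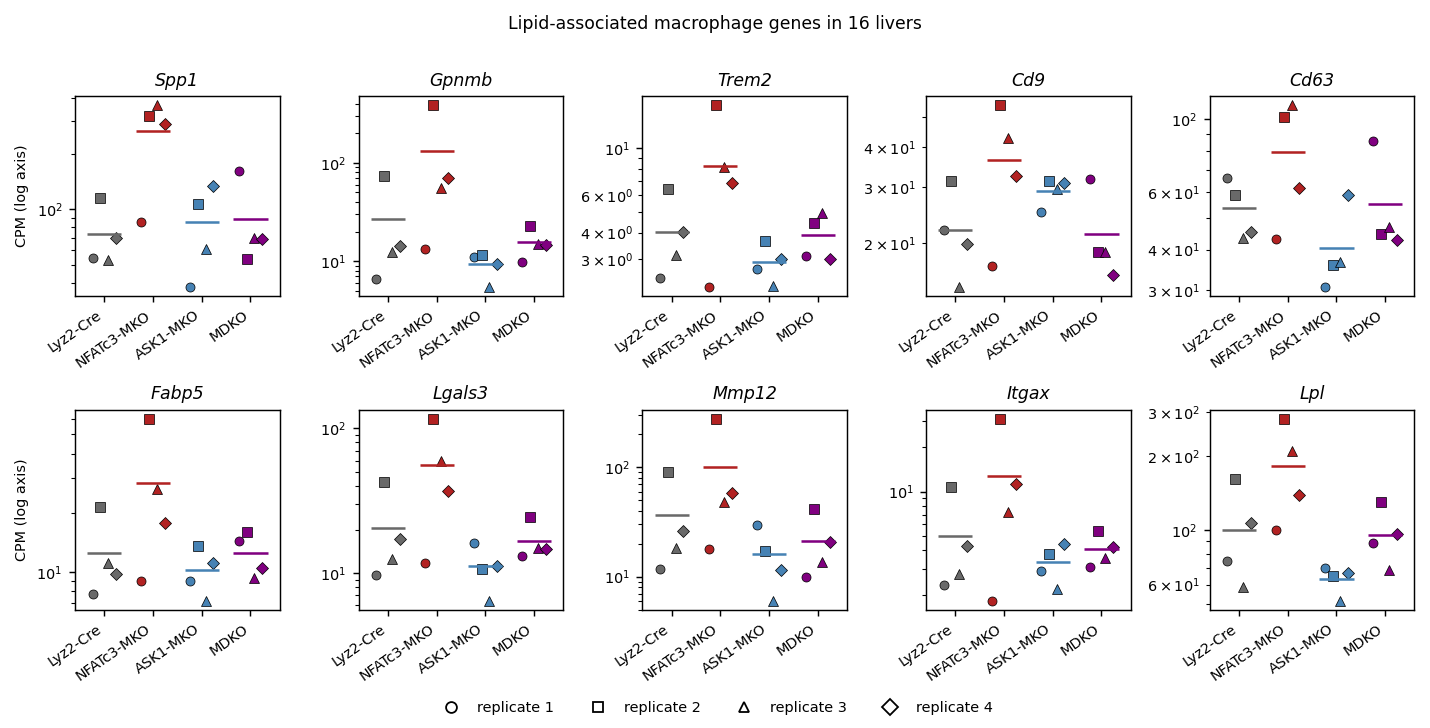
Levels of the 10 genes in CPM (log axis) in each of 16 livers by labelled group; symbols are replicates 1 to 4 and bars are group means. Replicate 2 of NFATc3-MKO is highest for 8 genes and replicate 1 of that group lies low, while replicate 2 of Lyz2-Cre is highest in its group for 9.

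Among the secreted products, Spp1 encodes osteopontin, a matrix protein and cytokine that binds integrins and CD44 and promotes fibrosis. It stood at 54.6, 115.7, 52.9 and 69.6 CPM in Lyz2-Cre replicates 1 to 4 and at 85.2, 322.3, 365.8 and 290.4 in NFATc3-MKO. It stood at 38.0, 106.7, 61.1 and 133.5 in ASK1-MKO and at 161.4, 53.9, 70.1 and 69.1 in MDKO. Replicates 2 to 4 of NFATc3-MKO lay above every other liver, while replicate 1 lay within the Lyz2-Cre range, so the groups overlapped. The fitted rise over Lyz2-Cre was 3.63-fold (log2 1.86 ± 0.46 SE, edgeR adjusted p = 0.0241), and it was the 1 call among the 10 genes where 8.45% of all 13309 genes tested were called and 3.77% were called higher. The direction held with each library left out (log2 1.67 to 2.18), but the call was lost without replicate 1, 3 or 4 of Lyz2-Cre or replicate 2 or 3 of NFATc3-MKO (edgeR adjusted p 0.0657, 0.0946, 0.0736, 0.0533 and 0.0785). Against ASK1-MKO the level was 3.13-fold higher (log2 1.65 ± 0.46 SE, edgeR adjusted p = 0.028), a call lost without replicate 1, 2 or 3 of ASK1-MKO or replicate 2, 3 or 4 of NFATc3-MKO (adjusted p 0.0536 to 0.0991).

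Lgals3 encodes galectin-3, a sugar-binding lectin released by activated macrophages. It stood at 9.73, 42.7, 12.4 and 17.1 CPM in Lyz2-Cre and at 11.7, 115.8, 59.9 and 36.8 in NFATc3-MKO. It stood at 16.1, 10.7, 6.46 and 11.3 in ASK1-MKO and at 13.2, 24.4, 15.0 and 14.6 in MDKO. NFATc3-MKO replicates 2 to 4 were above all ASK1-MKO livers, and replicate 2 of Lyz2-Cre overlapped them. Against ASK1-MKO the level was 5.04-fold higher in NFATc3-MKO (log2 2.33 ± 0.55 SE, edgeR adjusted p = 0.0128); against Lyz2-Cre it was 2.73 times as high and did not pass (edgeR adjusted p = 0.0977). Without NFATc3-MKO replicate 2 the difference from ASK1-MKO was log2 1.68 with an adjusted p of 0.052.

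Mmp12 encodes macrophage elastase, which degrades elastin. It stood at 11.8, 89.5, 18.3 and 26.1 CPM in Lyz2-Cre, at 17.8, 274.6, 48.6 and 58.8 in NFATc3-MKO and at 29.7, 17.1, 6.05 and 11.5 in ASK1-MKO. In MDKO it ran from 9.85 to 41.1. A single liver, NFATc3-MKO replicate 2, was far above all others, and the highest liver of that group was 15.4 times the lowest. The difference from ASK1-MKO passed (log2 2.64 ± 0.81 SE, edgeR adjusted p = 0.0435), but without NFATc3-MKO replicate 2 it was 1.36 with an adjusted p of 0.216. The call held without replicate 1 of NFATc3-MKO and was lost without any other liver of these groups (adjusted p 0.0518 to 0.216).

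Lpl encodes lipoprotein lipase, which frees fatty acids from lipoprotein triglyceride. It stood at 74.5, 160.9, 58.6 and 107.1 CPM in Lyz2-Cre and at 99.9, 281.6, 209.0 and 138.9 in NFATc3-MKO. It stood at 69.8, 64.7, 51.7 and 66.5 in ASK1-MKO and at 88.2, 129.6, 68.6 and 95.9 in MDKO. Every NFATc3-MKO liver was above every ASK1-MKO liver, and the 2.89-fold difference (log2 1.53 ± 0.32 SE, edgeR adjusted p = 0.00545) was the 1 among the 10 genes that stayed called under every alternative tried. Against Lyz2-Cre, Lpl was 1.82 times as high in NFATc3-MKO (edgeR adjusted p = 0.091) and 0.63 times in ASK1-MKO (edgeR adjusted p = 0.205), and neither passed.

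Among the surface proteins, Gpnmb encodes a membrane glycoprotein that is found on lysosomes and phagosomes and rises in lipid-laden macrophages. It stood at 6.56, 73.4, 12.3 and 14.2 CPM in Lyz2-Cre and at 13.2, 386.3, 55.4 and 70.1 in NFATc3-MKO. It stood at 11.0, 11.5, 5.47 and 9.28 in ASK1-MKO and at 9.76, 22.8, 15.1 and 14.6 in MDKO. All 4 NFATc3-MKO livers were above all ASK1-MKO livers, replicate 1 only just, and the 29.3-fold span within NFATc3-MKO was the widest of any of the 10 genes in any liver group. The fitted difference was 14.1-fold (log2 3.82 ± 0.89 SE, edgeR adjusted p = 0.0128), and without NFATc3-MKO replicate 2 it was log2 2.29 with an adjusted p of 0.0532. Against Lyz2-Cre it was 4.92 times as high (log2 2.30 ± 0.83 SE, edgeR adjusted p = 0.0938).

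Trem2 stood at 2.45, 6.42, 3.13 and 4.02 CPM in Lyz2-Cre, at 2.22, 15.9, 8.14 and 6.88 in NFATc3-MKO and at 2.68, 3.63, 2.24 and 3.00 in ASK1-MKO. Its 4 MDKO livers ran from 3.00 to 4.95. NFATc3-MKO replicate 1 was the lowest of all 16 livers for Trem2, although the other 3 of its group were the highest. The difference from ASK1-MKO was 2.86-fold (log2 1.51 ± 0.42 SE, edgeR adjusted p = 0.0276), and from Lyz2-Cre 2.06-fold without passing (edgeR adjusted p = 0.12). The first call was lost without replicate 1, 3 or 4 of ASK1-MKO or replicate 2 or 3 of NFATc3-MKO (adjusted p 0.0562 to 0.0985).

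Itgax encodes CD11c, an integrin subunit of dendritic cells and of macrophages in inflamed fat and liver. It stood at 2.33, 10.7, 2.76 and 4.28 CPM in Lyz2-Cre, at 1.83, 30.9, 7.25 and 11.3 in NFATc3-MKO and at 2.91, 3.80, 2.21 and 4.42 in ASK1-MKO. MDKO livers ran from 3.10 to 5.44. NFATc3-MKO replicate 2 stood above the rest and replicate 1 below all of them. The difference from ASK1-MKO was log2 1.94 ± 0.61 SE (edgeR adjusted p = 0.0457). The call was lost without any 1 of the ASK1-MKO livers or replicate 2, 3 or 4 of NFATc3-MKO (adjusted p 0.0712 to 0.217).

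Cd9 and Cd63 encode tetraspanins, small proteins that organise membrane domains and sit on exosomes, CD63 chiefly in late endosomes and lysosomes. Cd63 stood at 66.1, 58.9, 43.4 and 45.3 CPM in Lyz2-Cre, at 43.2, 101.6, 110.4 and 61.9 in NFATc3-MKO and at 30.8, 35.9, 36.7 and 58.6 in ASK1-MKO. Cd9 stood at 21.9, 31.4, 14.6 and 19.9 in Lyz2-Cre, at 16.9, 54.3, 42.9 and 32.5 in NFATc3-MKO and at 25.1, 31.4, 29.5 and 30.97 in ASK1-MKO. For both genes replicate 1 of MDKO was the highest of its group, at 85.9 and 31.9 CPM. Cd63 was called 1.96-fold higher in NFATc3-MKO than in ASK1-MKO (log2 0.97 ± 0.29 SE, edgeR adjusted p = 0.0385), a call lost without replicate 1, 2 or 3 of ASK1-MKO or replicate 2 or 3 of NFATc3-MKO (adjusted p 0.0906 to 0.135), whereas Cd9 was the 1 gene of the 10 not called there (log2 0.32 ± 0.29 SE, edgeR adjusted p = 0.471). In ASK1-MKO, Cd9 and Spp1 were the genes with a fitted level above Lyz2-Cre (log2 0.42 and 0.21), and neither difference passed.

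Fabp5, which encodes an intracellular carrier of fatty acids, stood at 7.76, 21.5, 11.1 and 9.75 CPM in Lyz2-Cre, at 9.05, 59.7, 26.5 and 17.7 in NFATc3-MKO and at 9.04, 13.6, 7.17 and 11.1 in ASK1-MKO. MDKO livers ran from 9.33 to 15.9. Replicate 1 of NFATc3-MKO again lay among the low livers and replicate 2 above all others. The difference from ASK1-MKO was 2.75-fold (log2 1.46 ± 0.44 SE, edgeR adjusted p = 0.0378), and without NFATc3-MKO replicate 2 it was log2 0.78 with an adjusted p of 0.158. The call was also lost without any 1 of the ASK1-MKO livers or replicate 3 of NFATc3-MKO (adjusted p 0.06 to 0.0997).

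As a set, all 10 genes had positive fitted changes in NFATc3-MKO against Lyz2-Cre, with a median log2 change of 1.26 where the median of all genes was 0.03. Medians of similar size were found in that comparison for markers of other cells, so the shift was not particular to the 10. They were 1.25 for neutrophil, 1.20 for stellate and myofibroblast, 1.08 for cholangiocyte and 1.08 for monocyte markers. Pan-macrophage markers had a median of 0.32 and Kupffer cell markers -0.73. Without NFATc3-MKO replicate 2 the median of the 10 was 0.50. Against ASK1-MKO the median of the 10 was 1.59 (all genes 0.02). Monocyte markers had 1.66 in that comparison, neutrophil markers 2.50 and Kupffer cell markers -0.38. Of the 10, 9 were called where 12.8% of all genes were called and 7.15% were called higher. That count was 3, 4, 3 and 5 without replicate 1, 2, 3 or 4 of ASK1-MKO, and 1, 3 and 6 without replicate 2, 3 or 4 of NFATc3-MKO. Lpl was the 1 gene left without replicate 2 of NFATc3-MKO, where the median log2 change against ASK1-MKO was 1.12. The groups did not overlap for 2 of the 10, Gpnmb and Lpl, where 14.6% of all genes did not overlap. Against Lyz2-Cre the NFATc3-MKO count was 0 without replicate 1, 3 or 4 of Lyz2-Cre or replicate 2 or 3 of NFATc3-MKO, 6 without replicate 2 of Lyz2-Cre and 8 without replicate 1 of NFATc3-MKO.

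In ASK1-MKO against Lyz2-Cre, 2 of the 10 fitted changes were positive, the median was -0.53 (all genes -0.03), and none of the 10 was called where 8.46% of all genes were (edgeR). Lpl alone had an unadjusted p under 0.05, 0.0466. In MDKO against Lyz2-Cre the median was -0.07, and 0 of 13309 genes were called by edgeR, a background of 0%, with 35 genes at an unadjusted p under 0.05, none of them among the 10, and 0 calls by DESeq2. These 35 are far fewer than the share of 0.05 that p-values give where nothing differs, so the p-values here ran high. The 0 calls are therefore weak evidence that these groups are alike, and the cause was not tested. The 95% intervals in MDKO were wide: for Gpnmb log2 -2.38 to 0.84, and for Spp1 -0.61 to 1.16.

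In MDKO against NFATc3-MKO all 10 fitted changes were negative, with a median of -1.37 (all genes -0.03). Monocyte and neutrophil markers had medians of -1.38 and -2.39 in that comparison, and Kupffer cell markers 0.87. Without NFATc3-MKO replicate 2 the median of the 10 was -0.66. Of the 10, 2 were called, Gpnmb (log2 -3.07 ± 0.87 SE, edgeR adjusted p = 0.0428) and Spp1 (log2 -1.58 ± 0.46 SE, edgeR adjusted p = 0.0457), where 7.35% of all genes were called and 3.29% were lower. The count was 0 without replicate 2, 3 or 4 of MDKO or replicate 2 or 3 of NFATc3-MKO, 1 without replicate 4 of NFATc3-MKO and 8 without its replicate 1. Between MDKO and ASK1-MKO, 9 fitted changes were positive and none was called by edgeR where 7.72% of all genes were; the smallest unadjusted p was 0.0705, for Lpl, and DESeq2 called none.

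Whether the combined knockout differed from the sum of the single ones was tested as an interaction, on the log2 scale. All 10 terms were negative, with a median of -0.95 (all genes 0.00). Without NFATc3-MKO replicate 2, 3 of them were positive and the median was -0.11. In the fit of all 16 livers none of the 10 passed, where 16.2% of all genes did. Nearest were Cd9 (-1.19 ± 0.42 SE, edgeR adjusted p = 0.0617) and Spp1 (-1.80 ± 0.64 SE, edgeR adjusted p = 0.0652), the 2 with an unadjusted p under 0.05 (0.0112 and 0.0122). Both passed in DESeq2's Wald test (adjusted p 0.025 for Cd9 and 0.0474 for Spp1), and both passed without replicate 2 of Lyz2-Cre, replicate 1 of MDKO or replicate 1 of NFATc3-MKO; without replicate 1 of ASK1-MKO, Spp1 alone did. These comparisons share their groups, so they are given side by side.

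**Figure D2:**
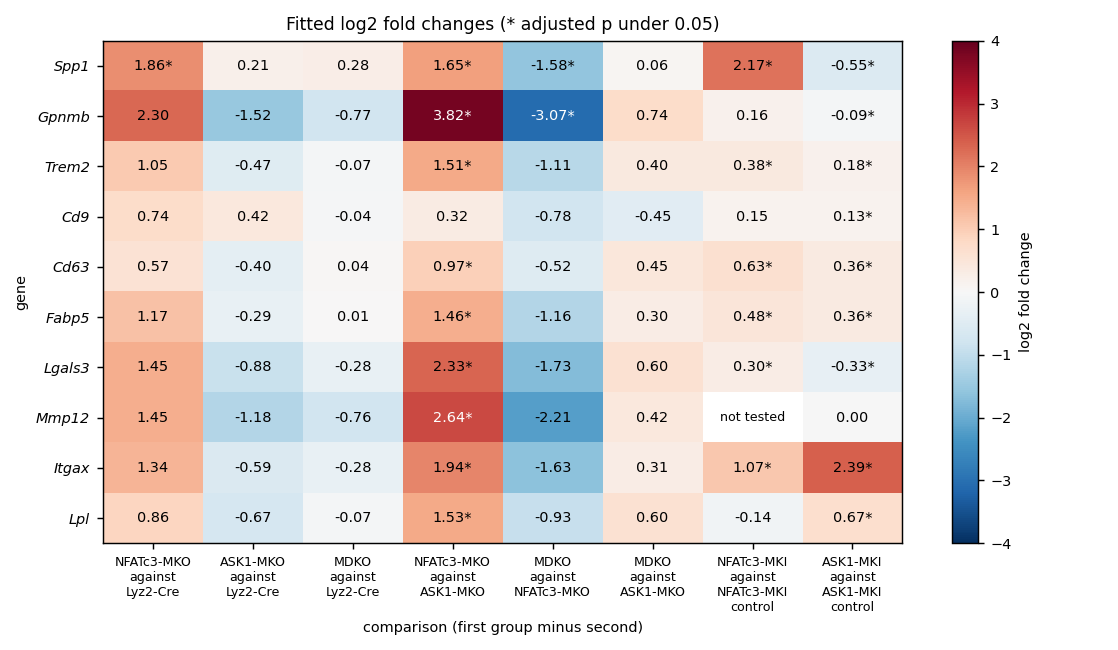
Fitted log2 fold changes of the 10 genes (rows) in the 8 comparisons of groups (columns), with an asterisk at an edgeR adjusted p under 0.05. The column NFATc3-MKO against ASK1-MKO holds 9 asterisks, all on positive values, and the culture columns show Spp1 at 2.17 and -0.55.

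The livers differed within groups in a way that ran through the gene set. The mean of the 10 standardised log2 levels, in SD units over the 16 livers, was 2.60, 1.47 and 1.00 in replicates 2, 3 and 4 of NFATc3-MKO but -0.70 in its replicate 1, and 0.96 in replicate 2 of Lyz2-Cre. The other livers ran from -1.11 to 0.01. The sum of 8 pan-macrophage markers, none at 0, was 160, 768, 225 and 311 CPM in NFATc3-MKO replicates 1 to 4 and 132, 380, 215 and 188 in Lyz2-Cre. It was 146 to 206 in ASK1-MKO and 118 to 318 in MDKO, whose replicate 2, at 318, was above NFATc3-MKO replicates 3 and 4. The sum of 8 neutrophil markers was 8.89 to 47.3 in NFATc3-MKO and 4.34 to 14.3 in Lyz2-Cre, and up to 2 and 3 of them were at 0 in a library. Their part in the results above was not tested.

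The marker counts that follow stand beside these shares of all genes called. In NFATc3-MKO, 8.45% were called against Lyz2-Cre (3.77% higher) and 12.8% against ASK1-MKO (7.15% higher). In ASK1-MKO against Lyz2-Cre 8.46% were called. Of 8 Kupffer cell markers, 2 fell in NFATc3-MKO against Lyz2-Cre, C6 (log2 -0.91 ± 0.15 SE, edgeR adjusted p = 0.00353) and Clec4f, a lectin restricted to Kupffer cells (-1.14 ± 0.30 SE, edgeR adjusted p = 0.0305), and none rose. Against ASK1-MKO 2 of the 8 were called, C6 and Marco, 1 of them lower and 1 higher. The call of Marco was lost in at least 1 fit with a library left out. The Kupffer cell sum was 348 to 476 CPM in NFATc3-MKO, 420 to 624 in Lyz2-Cre and 380 to 504 in ASK1-MKO, with none at 0. Of 6 monocyte markers none was called against Lyz2-Cre, and 3 rose against ASK1-MKO: Chil3 (log2 2.78), Ccr2 (1.63) and S100a4 (1.88), with edgeR adjusted p of 0.0277, 0.0455 and 0.0481. Their sum was 14.6 to 79.7 CPM in NFATc3-MKO and 15.5 to 21.7 in ASK1-MKO. Of 5 neutrophil markers tested, S100a9 and S100a8, which encode the subunits of calprotectin, rose in NFATc3-MKO against Lyz2-Cre (log2 2.45 ± 0.64 and 2.21 ± 0.63 SE, edgeR adjusted p = 0.0304 and 0.0401). Against ASK1-MKO 4 of the 5 rose: S100a9 (log2 3.35 ± 0.68 SE), S100a8 (3.31 ± 0.67 SE), Retnlg (2.50 ± 0.58 SE) and Csf3r (1.58 ± 0.47 SE), with edgeR adjusted p of 0.00475, 0.00512, 0.011 and 0.0354. All 3 erythroid markers were higher in NFATc3-MKO than in ASK1-MKO, led by Alas2, an enzyme of haem synthesis in red cell precursors (log2 1.27 ± 0.13 SE, edgeR adjusted p = 2.89e-05). Alas2 and the globin Hbb-bs were lower in ASK1-MKO than in Lyz2-Cre (log2 -1.07 and -0.78, edgeR adjusted p = 0.000227 and 0.0467), and the erythroid sum was 160 to 260 CPM in NFATc3-MKO, 147 to 211 in Lyz2-Cre, 74.8 to 129 in ASK1-MKO and 127 to 197 in MDKO, with none at 0. Of 6 liver endothelial markers, Clec4g and Fcgr2b fell in NFATc3-MKO against Lyz2-Cre (log2 -0.68 and -0.60, edgeR adjusted p = 0.0354 and 0.0469), and their sum was 123 to 183 against 182 to 225 CPM, with none at 0. The sum of 7 lymphocyte markers, none at 0, was 7.95 to 15.9 CPM in NFATc3-MKO and 3.60 to 6.45 in Lyz2-Cre. It was 5.63 to 6.60 in ASK1-MKO and 5.30 to 7.96 in MDKO. Of them, Jchain was called in NFATc3-MKO against Lyz2-Cre and against ASK1-MKO, and stayed called with each library left out. Cd8a was called against ASK1-MKO, a call lost in at least 1 such fit. The part of all these cells in the results was not tested. Of 8 stellate and myofibroblast markers, Tagln (1.25 ± 0.31 SE) and Acta2 (1.15 ± 0.32 SE), contractile genes of myofibroblasts, rose in NFATc3-MKO against Lyz2-Cre (edgeR adjusted p = 0.0222 and 0.0358).

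Bile duct cells, which also make osteopontin, were followed by 8 cholangiocyte markers. Their sum was 31.8 to 60.2 CPM in NFATc3-MKO, 28.4 to 39.1 in Lyz2-Cre, 25.0 to 38.2 in ASK1-MKO and 26.4 to 51.3 in MDKO, with at most 1 of them at 0. The liver at 51.3 was MDKO replicate 1, also the highest MDKO liver for Spp1, Cd63 and Cd9. Epcam was called higher in NFATc3-MKO than in Lyz2-Cre (log2 1.93 ± 0.52 SE, edgeR adjusted p = 0.0325), 1 of 7 tested, where 8.45% of all genes were called. All 7 had positive fitted changes in that comparison, with a median of 1.08. Against ASK1-MKO 6 of the 7 were positive, with a median of 1.09. Epcam and Sox9 were called higher there, where 12.8% of all genes were called and 7.15% higher, and both calls were lost in at least 1 fit with a library left out. The part of these cells in the level of Spp1 was not tested. The sum of 8 hepatocyte markers was 76513 to 116508 CPM in NFATc3-MKO and 102366 to 135951 in Lyz2-Cre, lowest in NFATc3-MKO replicate 2. Fewer hepatocyte counts raise the share of all other genes in a library. The scaling of library sizes may offset this only in part, and its part in the results was not tested.

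**Figure D3:**
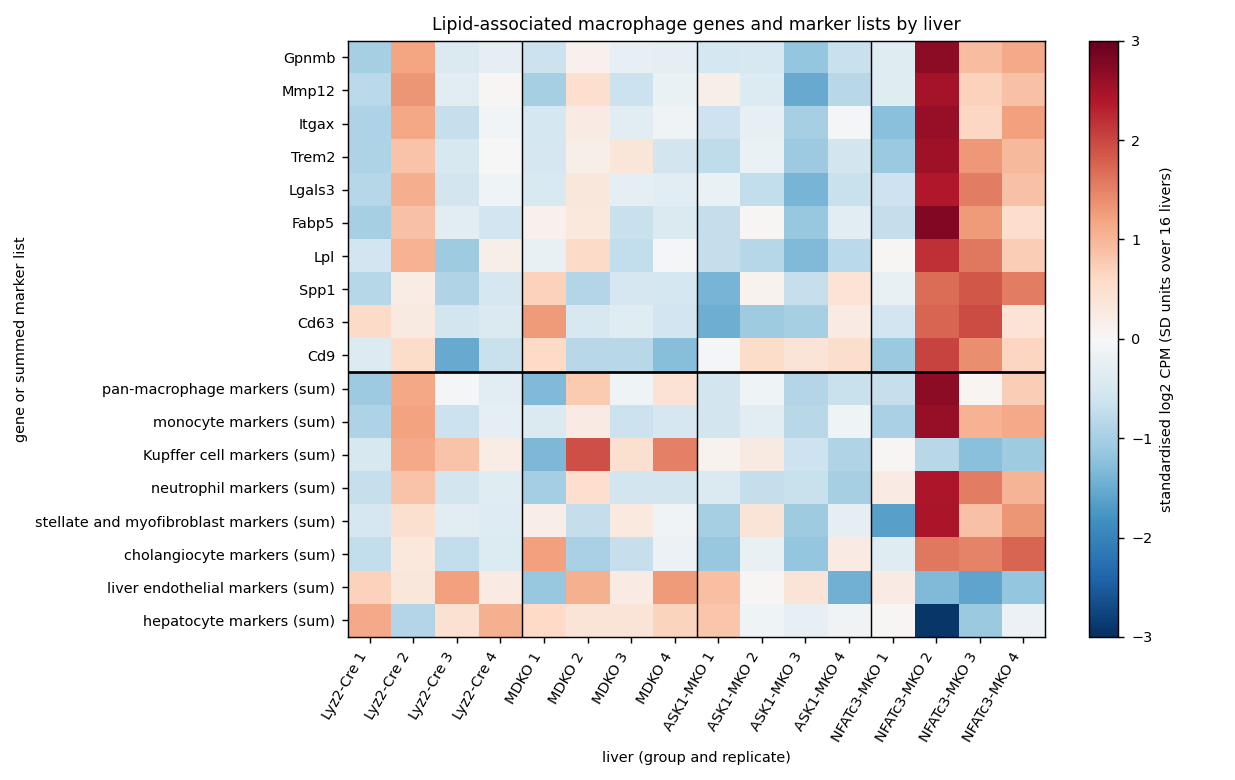
Standardised log2 levels (SD units over 16 livers) of the 10 genes (upper rows) and of the summed CPM of 8 marker lists (lower rows), by liver. NFATc3-MKO replicate 2 is the highest or next highest liver for all 10 genes, the highest for pan-macrophage, monocyte, neutrophil and stellate markers and the lowest for hepatocyte markers (76513 CPM), while its replicate 1 is the lowest for monocyte and stellate markers.

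Genes that work with the 10 were read from lists drawn up for their roles. In a wider lipid-associated macrophage programme of 23 genes, 21 were tested in the livers and 7 were called higher in NFATc3-MKO than in ASK1-MKO, with none lower, where 12.8% of all genes were called and 7.15% were called higher. The 4 with the smallest p were Atp6v0d2, a subunit of the vacuolar proton pump (log2 1.22 ± 0.18 SE, edgeR adjusted p = 0.000593), Lgals1, galectin-1 (1.20 ± 0.23 SE, edgeR adjusted p = 0.00308), Cd36, a fatty acid and oxidised-lipoprotein receptor (1.04 ± 0.22 SE, edgeR adjusted p = 0.00545) and Ctsd, a lysosomal protease (0.60 ± 0.14 SE, edgeR adjusted p = 0.00943). All 4 stayed called with each library left out. Against Lyz2-Cre, Syngr1, a vesicle protein, was the 1 called in NFATc3-MKO (log2 1.86 ± 0.51 SE, edgeR adjusted p = 0.0342), and Atp6v0d2, Lgals1 and Ctsd fell in ASK1-MKO (log2 -0.73, -0.89 and -0.48, edgeR adjusted p = 0.02, 0.0215 and 0.0371), calls that each were lost in at least 1 fit with a library left out (adjusted p up to 0.0676, 0.0647 and 0.103). Among 8 genes of TREM2 signalling and shedding, none was called in either knockout against Lyz2-Cre, and Hcst, the adaptor DAP10, was the 1 called between them (log2 1.32 ± 0.35 SE, edgeR adjusted p = 0.0213). Against Lyz2-Cre, 8.45% of all genes were called in NFATc3-MKO and 8.46% in ASK1-MKO.

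Angptl4, a secreted inhibitor of lipoprotein lipase, was higher in both single knockouts than in Lyz2-Cre, by log2 1.00 ± 0.16 SE in NFATc3-MKO and 1.17 ± 0.16 SE in ASK1-MKO (edgeR adjusted p = 0.00321 and 0.000329), and its interaction was -2.21 ± 0.22 SE (edgeR adjusted p = 5.96e-05). Apoc2, the activator of the enzyme, fell in ASK1-MKO (log2 -0.73 ± 0.17 SE, edgeR adjusted p = 0.0155). Of 8 such genes these were the ones called against Lyz2-Cre, and both genes kept their calls with each library left out. Of all genes, 8.45% were called in NFATc3-MKO and 8.46% in ASK1-MKO. Among 4 fatty acid binding proteins tested beside Fabp5, Fabp1, the hepatocyte form, fell in NFATc3-MKO (log2 -1.14 ± 0.23 SE, edgeR adjusted p = 0.00793).

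Among 7 osteopontin receptors, Itgb5, the integrin beta-5 subunit, was called in NFATc3-MKO against Lyz2-Cre, higher by log2 0.44 ± 0.10 SE (edgeR adjusted p = 0.0133). The share of all genes called in NFATc3-MKO was 8.45% against Lyz2-Cre and 12.8% against ASK1-MKO. Of 3 tissue inhibitors of metalloproteinases, Timp1 was called against ASK1-MKO, higher by 2.72 ± 0.69 SE in NFATc3-MKO (edgeR adjusted p = 0.0177). Of 7 transcription factors of the MiT family and lipid-sensing receptors, Nr1h3, the oxysterol receptor LXR-alpha, and Tfeb, a regulator of lysosomal genes, fell in NFATc3-MKO against Lyz2-Cre (log2 -0.45 and -0.50, edgeR adjusted p = 0.0216 and 0.0385). Of the 3 tested integrin partners of CD11c, 0 were called between livers by edgeR. Across all marker and pathway lists, up to 4 called genes with the smallest p from each list were tallied, whether or not given above. Of these, 12 of 17 calls against Lyz2-Cre in NFATc3-MKO, and 15 of 32 against ASK1-MKO, were lost in at least 1 fit with a library left out; S100a8, S100a9, Clec4g, Fcgr2b, Csf3r, Syngr1, Clec4f, Tagln, Acta2, Epcam, Nr1h3, Tfeb, Hcst, Timp1, Chil3, Ccr2 and S100a4 are among them in a comparison given above, and so, against Lyz2-Cre, is Itgb5. The call of Hbb-bs in ASK1-MKO against Lyz2-Cre was lost too.

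Of the 13309 genes tested in the livers, those whose standardised profile over the 16 livers lay closest to the mean profile of the 10 were, outside the set, Coro1a, Fxyd5, Capg, Slc25a24, Emp3, Lsp1, Timp1 and Orai2. Their root-mean-square distances were 0.2 to 0.303 SD units, against a median of 1.37 over all genes. Coro1a ran from 5.62 to 23.5 CPM in NFATc3-MKO and from 4.53 to 11.5 in Lyz2-Cre, and Capg from 4.98 to 31.6 and from 5.09 to 13.4. Of the set itself, Fabp5 ranked 4, Lgals3 6, Gpnmb 9, Trem2 11 and Itgax 17 in likeness to their shared mean, to which each contributes, while Spp1 ranked 283, Cd63 627 and Cd9 724. With group means removed, 4 of the 8 outside genes remained among the nearest 8.

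Per kilobase of exon, so that genes can be compared, Spp1 had the highest level of the 10 in each of the 4 liver groups, from 44.4 ± 17.8 CPM per kilobase in Lyz2-Cre to 161 ± 75.5 in NFATc3-MKO (SD, n = 4). Trem2 had the lowest in each, from 0.584 ± 0.118 in ASK1-MKO to 1.68 ± 1.15 in NFATc3-MKO, with Itgax next. In Lyz2-Cre, Cd63, Lgals3, Cd9 and Lpl followed Spp1 at 14.5 ± 2.96, 11.0 ± 8.12, 10.7 ± 3.43 and 9.57 ± 4.31, levels that do not differ beyond their spread. Gpnmb moved from the seventh place in Lyz2-Cre (4.08 ± 4.81) to the fourth in NFATc3-MKO (20.1 ± 26.4), an order that rests on replicate 2 of both groups. In the cultures Spp1 led in the NFATc3-MKI controls, at 2584 ± 169 (SD, n = 3), and Gpnmb led in the ASK1-MKI controls, at 1810 ± 7.06, where Itgax was lowest at 2.44 ± 0.0988.

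In cultures labelled NFATc3-MKI, 6 of the 9 genes tested rose over their controls and none fell, where 33.3% of all 13363 genes tested were called and 16.5% were called higher. The rise was largest for Spp1 and Itgax and under 1.6-fold for the others. In cultures labelled ASK1-MKI, 6 of 10 rose and 3 fell, where 49.1% of 11380 genes were called, 24.6% higher and 24.5% lower; Itgax rose most, and Spp1, Lgals3 and Gpnmb fell. Both sets were separate tables with their own controls, so values are set side by side and no difference between them was tested.

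**Figure D4:**
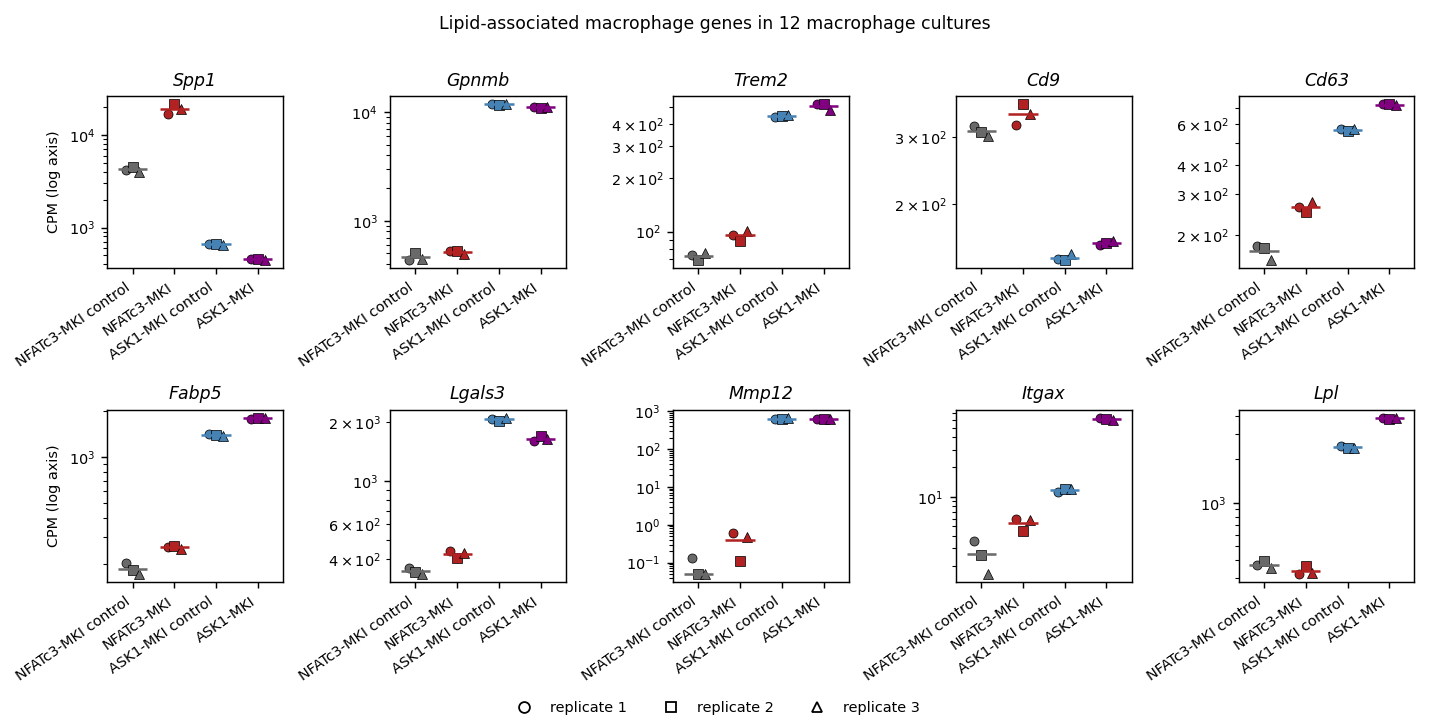
Levels of the 10 genes in CPM (log axis) in each of 12 cultures; symbols are replicates 1 to 3, bars are group means, and Mmp12 libraries at 0 are drawn at 0.05. Spp1 stands at 4001 to 4555 in the NFATc3-MKI controls and at 16957 to 21526 in NFATc3-MKI, and Itgax at 11.2 to 12.1 in the ASK1-MKI controls and at 60.1 to 62.9 in ASK1-MKI.

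Spp1 stood at 4218, 4555 and 4001 CPM in the NFATc3-MKI controls and at 16957, 21526 and 19129 in NFATc3-MKI. In the ASK1-MKI set it stood at 669, 666 and 652 in the controls and at 461, 453 and 444 in ASK1-MKI. Neither pair of groups overlapped, and the order was opposite in the sets. The rise was 4.51-fold in NFATc3-MKI (log2 2.17 ± 0.11 SE) and ranked 5 by p among all genes of that comparison. The level in ASK1-MKI was 0.683 times its control (log2 -0.55 ± 0.02 SE), and both passed in edgeR with each culture left out. Of the osteopontin receptors, Cd44 rose in NFATc3-MKI (log2 0.61 ± 0.08 SE) and Itga4, integrin alpha-4, fell in both sets (-1.01 ± 0.09 and -0.36 ± 0.04 SE).

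Itgax stood at 3.60, 2.56 and 1.65 CPM in the NFATc3-MKI controls and at 5.96, 4.53 and 5.78 in NFATc3-MKI. It stood at 11.2, 11.9 and 12.1 in the ASK1-MKI controls and at 62.9, 61.9 and 60.1 in ASK1-MKI. Groups did not overlap in either set. The rise was 2.10-fold in NFATc3-MKI (log2 1.07 ± 0.28 SE, edgeR adjusted p = 0.00562) and its call was lost without control replicate 3 (0.82, adjusted p = 0.0526). In ASK1-MKI it was 5.25-fold (log2 2.39 ± 0.06 SE), and of the integrin partners of CD11c, Itgal and Itgb2 rose there by log2 0.48 ± 0.03 and 0.24 ± 0.02 SE.

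Lpl stood at 370.5, 391.8 and 350.4 CPM in the NFATc3-MKI controls and at 320.2, 366.4 and 325.7 in NFATc3-MKI, groups that overlapped (log2 -0.14 ± 0.09 SE, edgeR adjusted p = 0.232). It stood at 2471, 2417 and 2399 in the ASK1-MKI controls and at 3858, 3820 and 3885 in ASK1-MKI. Those did not overlap, a 1.59-fold rise (log2 0.67 ± 0.02 SE). Angptl4 rose beside it in ASK1-MKI (log2 0.99 ± 0.25 SE, edgeR adjusted p = 0.000369).

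Lgals3 stood at 2076, 2040 and 2109 CPM in the ASK1-MKI controls and 1614, 1704 and 1648 in ASK1-MKI, lower without overlap (log2 -0.33 ± 0.02 SE). In the NFATc3-MKI set it stood at 360, 343 and 334 and then 438, 405 and 431, a rise (log2 0.30 ± 0.08 SE, edgeR adjusted p = 0.0074) whose call was lost without control replicate 3 (0.27, adjusted p = 0.0592). Gpnmb, the highest of the 10 in CPM in the ASK1-MKI set, stood at 11804, 11740 and 11829 in the controls and 11137, 11009 and 11040 in ASK1-MKI, a small fall of 0.09 on the log2 scale (± 0.02 SE) in libraries that varied little. In the NFATc3-MKI set Gpnmb stood at 434, 507 and 446 and at 522, 528 and 498, which overlapped and did not pass (log2 0.16 ± 0.09 SE, edgeR adjusted p = 0.168).

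Cd63 rose in both sets, from 181, 177 and 157 to 265, 251 and 278 CPM in NFATc3-MKI (log2 0.63 ± 0.09 SE) and from 571, 559 and 573 to 728, 730 and 721 in ASK1-MKI (0.36 ± 0.02 SE). Fabp5 rose from 200.3, 180.3 and 170.7 to 258, 260.2 and 249 (0.48 ± 0.08 SE) and from 1418, 1396 and 1381 to 1791, 1802 and 1805 (0.36 ± 0.02 SE). Trem2 rose from 74.3, 69.2 and 75.9 to 95.9, 88.5 and 101.1 (0.38 ± 0.09 SE) and from 441, 443 and 452 to 518, 518 and 482 (0.18 ± 0.02 SE). None of these groups overlapped. Cd9 stood at 303 to 321 and 323 to 368 CPM in the NFATc3-MKI controls and NFATc3-MKI, apart by a narrow gap and not called (0.15 ± 0.08 SE, edgeR adjusted p = 0.172), and it rose slightly in ASK1-MKI, from 142 to 148 in the controls to between 156 and 159.5 (0.13 ± 0.03 SE).

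Mmp12 stood at 602, 616 and 656 CPM in the ASK1-MKI controls and at 633, 613 and 625.4 in ASK1-MKI, overlapping, with a log2 change of -0.00175 ± 0.02 SE and a 95% interval of -0.05 to 0.04. In the NFATc3-MKI set it gave 1, 0 and 0 counts in the controls and 5, 1 and 4 in NFATc3-MKI, a ratio of 9.31 after scaling, with an exact 95% counting interval of 1.32 to 404 that covers counting error only. Over the 9 tested genes the groups did not overlap for 7 in the NFATc3-MKI set, where 45.8% of all genes did not, and over 10 genes for 9 in the ASK1-MKI set, where 54.5% did not.

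Of the wider programme, 14 of 20 tested genes rose in NFATc3-MKI and 2 fell, where 33.3% of all genes were called and 16.5% were called higher. The calls were led by Fabp4, a fatty acid carrier of adipocytes and macrophages (log2 3.63 ± 0.15 SE), Plin2, the lipid droplet coat protein (1.65 ± 0.10 SE), the chemokine Ccl3 (1.16 ± 0.10 SE) and Cd36 (2.51 ± 0.28 SE). In ASK1-MKI 16 of 22 rose and 4 fell, where 49.1% of all genes were called, 24.6% higher and 24.5% lower. The calls were led by Atp6v0d2 (1.63 ± 0.03 SE), Clec7a, the beta-glucan receptor dectin-1 (1.11 ± 0.02 SE), Ctsl, a lysosomal protease that fell (-0.73 ± 0.02 SE), and Pld3 (0.65 ± 0.02 SE). Of the MiT family and lipid-sensing receptors, 3 of 4 tested fell in NFATc3-MKI, each a call lost without at least 1 culture, and 4 of 7 rose in ASK1-MKI, with Nr1h3 at 0.74 ± 0.05 SE. Of 5 tested Kupffer cell markers 4 fell in ASK1-MKI, Marco, a scavenger receptor, by 1.59 on the log2 scale, and their sum was 1093 to 1118 CPM in the controls and 507 to 519 in ASK1-MKI, with Clec4f at 0 in all 6 cultures. Of 5 tested neutrophil markers 4 fell in ASK1-MKI: S100a8 (log2 -1.45 ± 0.05 SE), S100a9 (-3.25 ± 0.18 SE), and Mpo and Elane, proteins of neutrophil granules. Their sum was 223 to 226 CPM in the controls and 159 to 164 in ASK1-MKI, with 1 to 3 of the 8 at 0 in a library. Of 5 tested monocyte markers 3 fell, Cx3cr1 (log2 -1.57 ± 0.09 SE), Plac8 (-2.50 ± 0.15 SE) and Ccr2 (-2.44 ± 0.16 SE), and Ly6c2 rose (1.05 ± 0.04 SE). The monocyte sum was 154 to 162 CPM in the controls and 200 to 212 in ASK1-MKI. Pan-macrophage markers summed to 1706 to 1830 CPM in the NFATc3-MKI controls and 2390 to 2620 in NFATc3-MKI, with at most 1 at 0, and 6 of 7 tested rose; in the ASK1-MKI set they summed to 33842 to 36166 and 35866 to 37854. Their part in the results above was not tested.

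When each gene's log2 CPM was compared alone by exact permutation (two-sided), 0 of 80 tests over the 8 comparisons had an adjusted p under 0.05, and the smallest was 0.276. The smallest p that 4 against 4 livers allow is 0.0286 and that of 3 against 3 cultures 0.1, so the culture comparisons cannot pass this test. After adjustment over all 80 tests, a liver comparison could pass only if most liver tests reached their smallest p. The 0 of 80 is therefore no evidence about the livers or the cultures. The smallest possible p was reached by 2 genes in NFATc3-MKO against ASK1-MKO, 7 in the NFATc3-MKI set and 9 in the ASK1-MKI set.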

How the data were processed

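Of 28 samples, the 16 livers are in a deposited table of expected counts per gene symbol, rounded to whole numbers here, and the 12 cultures in 2 deposited tables of raw counts per Ensembl gene; the values look unnormalised. Per the submitters' processing notes, HISAT2 and mm10 were used; how reads were counted, with which annotation and strand option, is not given in the sources used here, so reads of overlapping antisense genes cannot be told apart. Per the labels' protocols the libraries were stranded by dUTP.

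Each table was fitted alone with edgeR 4.0.16 in R 4.3.3 (filterByExpr, TMM, robust quasi-likelihood test, Benjamini-Hochberg over all genes tested), the 16 livers in 1 fit. Log2 changes give the group named first relative to the other; the SE is the size of the change over the square root of F, and 95% intervals are normal. The interaction sets the difference of MDKO from NFATc3-MKO against that of ASK1-MKO from Lyz2-Cre. CPM use TMM-scaled library sizes; log2 CPM use a prior count of 2. The fit was tested on simulated data. Depth and counting error limit low genes such as Mmp12 in the NFATc3-MKI set. Gene lengths are GENCODE M21 exon unions (mm10). Upstream sequences are from RefSeq.

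The 10 genes and all lists were chosen with earlier results of these data known. Named are all 10 genes, Nfatc3 and Map3k5, from each list up to 4 called genes with the smallest p, and the 8 genes nearest in profile; the marker genes used to check the cultures were picked after their values were seen. Replicates of a group differed by more than sampling noise, so none was counted as a duplicate. Same-numbered MDKO and Lyz2-Cre livers deviated together (correlations 0.528, 0.508, 0.259 and 0.239), which met the rule that every correlation exceed 0.1. Other pairs of groups did not meet this rule. It rests on the data, not the labels, and so few livers cannot show that they were paired. The main fit holds no pairing. The replicate block gave same-numbered livers of all 4 groups a shared term, so it does not test this pairing alone. Alternatives were DESeq2 1.42.0 size factors and Wald test, the replicate block, leaving out the filter or setting it at a mean of 1 CPM, a fit of only 2 groups, and dropping each library in turn.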

Additional observations from a re-analysis of the deposited data

Results flagged for a closer look

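Over the 10 genes and 4 liver groups, 40 sets of 4 livers were examined for a liver far from the other 3, and 6 were found. For independent, normally distributed values chance gives this in about 1 in 20 sets. The sets share livers, and the genes vary together, so the 6 cannot be set against that rate. Gpnmb stood at 73.4 CPM in Lyz2-Cre replicate 2 and at 6.56 to 14.2 in the others of its group. Gpnmb stood at 386.3 CPM in NFATc3-MKO replicate 2 and at 13.2 to 70.1 in the others. Mmp12 stood at 274.6 CPM in the same liver and at 17.8 to 58.8 in the others. These 3 sit in the 2 livers that are also highest in their groups for pan-macrophage markers. In MDKO, Spp1 stood at 161.4 CPM in replicate 1 against 53.9 to 70.1, and Cd63 at 85.9 against 42.9 to 46.8 in the same liver. Lgals3 stood at 24.4 CPM in MDKO replicate 2 against 13.2 to 15.0 in the others. No cause was tested for any of them.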

How the results depend on the processing

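In the liver comparisons with NFATc3-MKO the number of the 10 genes called moved with most settings, and the signs of the fitted changes did not. In the other 3 comparisons of 2 liver groups it was 0 in every setting. For NFATc3-MKO against Lyz2-Cre (1 called) it was 2 by DESeq2's Wald test, 0 with no filter, 4 with the replicate block and 0 with only the 2 groups compared, and 0 to 8 with a library left out. For NFATc3-MKO against ASK1-MKO (9 called) it was 4 with no filter, 3 with only the 2 groups compared, 8 with the block, and 1 to 9 with a library left out. For MDKO against NFATc3-MKO (2 called) it was 4 by the Wald test, 0 with no filter, 4 with the block, 0 with only the 2 groups, and 0 to 8 with a library left out. For the interaction (0 called) it was 2 by the Wald test and 0 to 2 with a library left out. In the cultures it stayed at 6 for NFATc3-MKI except 4 without control replicate 3 (range 4 to 6), and at 9 for ASK1-MKI throughout. Genes called overall numbered 1124 in NFATc3-MKO against Lyz2-Cre but 1719 by the Wald test and 218 with only the 2 groups (268 to 1585 with a library left out), 978 in MDKO against NFATc3-MKO but 1628 and 283 (335 to 1423), and 1697 in NFATc3-MKO against ASK1-MKO but 671 with the 2 groups (931 to 2872). With a library left out they ran from 587 to 1025 in ASK1-MKO against Lyz2-Cre (1126), from 547 to 833 in MDKO against ASK1-MKO (1028), and from 1512 to 2291 for the interaction (2153). By the Wald test, the block and no filter these were 1632, 1453 and 923, then 1494, 1358 and 843, then 2584, 2530 and 1800, and with only the 2 groups 1470 and 1257. The cause of these shifts was not tested; leaving out a library leaves fewer samples. The replicate block made 0 calls in MDKO against Lyz2-Cre as the fit without it did, and with it Cd9 there turned to 0.00266.

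Signs that turned with a library left out belonged to uncalled values. In MDKO against Lyz2-Cre the ranges were -1.10 to 0.51 for Gpnmb, -0.25 to 0.27 for Trem2, -0.19 to 0.59 for Spp1, -0.26 to 0.16 for Cd63, -1.30 to 0.21 for Mmp12, -0.53 to 0.42 for Itgax, -0.52 to 0.37 for Lgals3, -0.31 to 0.19 for Cd9, -0.16 to 0.42 for Fabp5, -0.25 to 0.27 for Lpl, -0.0637 to 0.0227 for Map3k5 and -0.0624 to 0.0973 for Nfatc3. In ASK1-MKO against Lyz2-Cre they were -0.0924 to 0.54 for Spp1, -0.83 to 0.12 for Itgax and -0.47 to 0.12 for Fabp5. In MDKO against ASK1-MKO they were -0.40 to 0.37 for Spp1 and -0.13 to 0.90 for Mmp12. For the interaction they were -0.42 to 0.11 for Cd63, -2.02 to 0.24 for Mmp12 and -0.61 to 0.0324 for Lpl. For Mmp12 in ASK1-MKI the range was -0.0282 to 0.0347, and 0.00334 with no filter. Depth limits Mmp12 in the NFATc3-MKI set, where 10 and 1 counts were read, and Trem2 and Itgax in MDKO replicate 3, the shallowest liver.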
